A study of Bos taurus with 15 samples.

Results

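The genes described are 7 transcription factors of the pluripotent epiblast, NANOG, POU5F1 (OCT4), SOX2, SALL4, KLF4, PRDM14 and OTX2, chosen by symbol for their textbook role and measured in bovine (Bos taurus) blastocysts. All 7 were among the 17259 genes of the deposited table, and all 7 were among the 11578 genes kept after the filter on low counts. Each had counts in every one of the 15 libraries, between 13 and 16451 per gene and library with a median of 1873. Levels are given in CPM, counts relative to the library's scaled total, which compare libraries for 1 gene and not genes with each other, and n counts libraries.

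The inner cell mass of a mammalian blastocyst divides into the epiblast, which forms the embryo proper, and the hypoblast, while the surrounding trophectoderm forms the placenta. NANOG, POU5F1 and SOX2 are the core of the epiblast's regulatory network and bind many of the same enhancers in mouse and human cells. In cattle, POU5F1 is also found in the trophectoderm of the early blastocyst, whereas NANOG and SOX2 are largely those of the inner cell mass. SALL4 is a zinc finger partner of the core factors, KLF4 and PRDM14 are known from naive pluripotency in the mouse, and OTX2 accompanies the move out of the naive state there.

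Poly(A) RNA was sequenced from day 7 blastocysts in 3 groups of 5 libraries. Automatic libraries came from embryos cultured in vitro in SOF medium after the cumulus cells had been taken off the zygotes by an automated method, manual libraries from embryos cultured alike after removal by hand, and in vivo libraries from blastocysts collected from the animal. Neither the number of embryos in a library nor the culture drop or donor behind it is given in the labels. The p-values therefore weigh differences against the scatter of these particular libraries, and part of that scatter may be technical. In vivo embryos differ from both cultured groups in origin as well as in culture, and the labels give no breed, sire or collection day with which to compare them.

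Library totals were about 17963900 to 41974200 counts, with a median of 27598900. Automatic replicates 2 and 4, manual replicate 2 and in vivo replicates 2 and 4 stood apart, with only 6977 to 8547 genes at 10 counts or above, where the other 10 libraries had 9900 to 12611. These 5 are called low-detection libraries, and results are also given without them. Their mitochondrial share of counts was 8.18 to 14.4%, against 3.26 to 9.99% in the others. Blastocyst markers were present in each group: the summed level of 12 trophectoderm genes was 6301 to 17210 CPM in automatic, 9613 to 38446 CPM in manual and 17030 to 33785 CPM in in vivo libraries. Among 12 hypoblast genes, GATA6 and PDGFRA had counts in 15 of 15 libraries and SOX17 in 4. Of 13 cumulus and granulosa genes, FOXL2 was at 0 in every library, FSHR and CYP19A1 had counts in 15 of 15 libraries and STAR in 13, and the list's summed level was 17.1 to 43.1 CPM in automatic, 35.4 to 137 CPM in manual and 12.9 to 224 CPM in in vivo libraries. Of 12 oocyte genes, NLRP5 was at 0 in every library, OOEP had counts in 15 and ZP3 and MOS in 14 each. The summed level of that list was 8.89 to 54.8 CPM in automatic, 15.1 to 48.3 CPM in manual and 12.9 to 96.3 CPM in in vivo libraries. In such whole-embryo RNA, fewer cells of a type and less RNA per cell cannot be told apart.

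Automatic and manual libraries overlapped in all 7 factors, and 0 of the 7 passed the test between them. Against in vivo blastocysts, NANOG stood apart from the other 6: all 10 cultured libraries lay below the lowest in vivo library, with a fitted level 5.10-fold lower. Its adjusted p in the edgeR quasi-likelihood test was 0.191, so it was not called either. SALL4 and PRDM14 had lower, and POU5F1, SOX2, KLF4 and OTX2 higher, fitted levels in cultured than in vivo blastocysts, each with groups that overlapped and an interval of the difference that included 0.

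**Figure D1:**
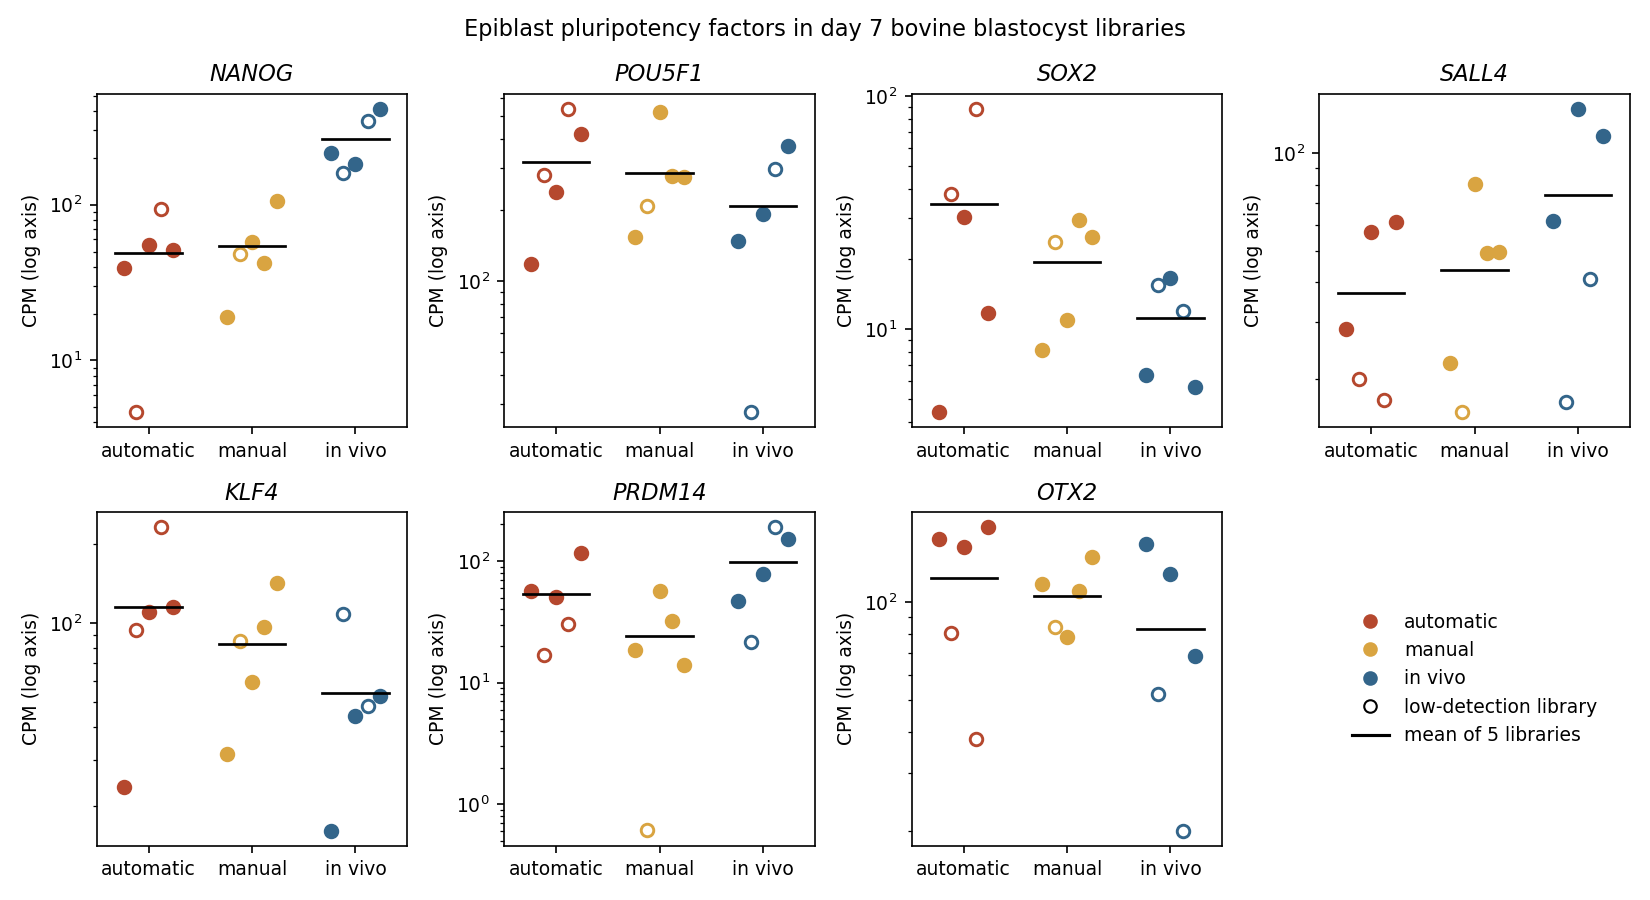
Level of each of the 7 factors (CPM, log axis, a separate axis for each gene) in the automatic, manual and in vivo libraries. Points are single libraries, open points low-detection libraries, and bars means of 5; NANOG is the only gene whose in vivo points, at 161 CPM and above, clear both cultured groups.

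NANOG, the homeodomain factor that marks the epiblast within the inner cell mass, was measured at 39.3, 4.67, 55.5, 94.3 and 51.2 CPM in automatic replicates 1 to 5, at 19.1, 48.3, 57.2, 41.9 and 106 CPM in manual replicates 1 to 5, and at 215, 161, 182, 346 and 414 CPM in in vivo replicates 1 to 5. The highest cultured value, 106 CPM in manual replicate 5, was below the lowest in vivo value of 161 CPM. Automatic replicate 2 was far below the other 9 cultured libraries, at 120 counts. The log2 fold change was -2.43 ± 0.62 (SE) for automatic against in vivo and -2.27 ± 0.62 for manual against in vivo, with edgeR adjusted p of 0.441 and 0.994. For the average of both cultured groups, called the cultured mean below, it was -2.35 ± 0.49, with a 95% interval of 0.0957 to 0.402 as a ratio of cultured to in vivo level. By unadjusted p, NANOG ranked 7 of 11578 genes there, at 0.000145.

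Few genes passed in any comparison, which sets the scale for the 7. At an adjusted p under 0.05, edgeR called 0 of 11578 genes (0.0%) between automatic and manual, 2 (0.0173%) for the cultured mean against in vivo, 2 (0.0173%) for automatic against in vivo and 0 (0.0%) for manual against in vivo. The 2 genes were CHAC1 and PAGE4 in the first of the comparisons with in vivo and CHAC1 and LRP2 in the second, named here after their values were seen. Of the 7 factors, 0 were called in each of the 4 comparisons. At an unadjusted p under 0.05 the factors passing were 0 of 7 between automatic and manual (1.48% of all genes), 1 for the cultured mean against in vivo (6.13%), 1 for automatic against in vivo (5.36%) and 2 for manual against in vivo (3.39%). NANOG was 1 of 32 genes, 0.276% of those tested, with all 10 cultured libraries below all 5 in vivo libraries. Taken group by group, 1.16% of genes had all automatic and 0.605% all manual libraries below in vivo, NANOG among both.

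The call on NANOG depended on the tool. For the cultured mean against in vivo, the adjusted p was 0.00391 with DESeq2 (87 genes called, 0.751%), 0.0268 with limma-voom (15 genes, 0.13%) and 0.00131 with limma-voom and sample quality weights (107 genes, 0.924%). For automatic against in vivo it was 0.0213 with DESeq2 (0.751% of genes called), 0.129 with limma-voom (0.0777%) and 0.00804 with quality weights (0.821%). For manual against in vivo it was 0.0561 with DESeq2 (0.38%), 0.272 with limma-voom (0.00864%) and 0.0705 with quality weights (0.0173%), so NANOG passed with none of them there. NANOG was the 1 factor that any of these tools called. Without the low-detection libraries edgeR gave -2.37 ± 0.42 with an adjusted p of 0.0801 (0.0568% of genes called), and all 7 remaining cultured libraries lay below all 3 remaining in vivo libraries, as 2.22% of genes did. The size of the NANOG difference was thus as large without those libraries.

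The cultured groups did not separate on NANOG. Automatic libraries averaged 49.0 ± 32.2 CPM and manual libraries 54.5 ± 31.97 CPM (SD, n = 5 each), a log2 fold change of -0.15 ± 0.59. Its 95% interval, -1.40 to 1.09, leaves room for a difference of more than 2-fold in either direction. The sign turned to 0.15 without automatic replicate 2 and to 0.23 without manual replicate 5.

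POU5F1, the POU-domain factor required for the inner cell mass, was at 117, 281, 238, 538 and 420.0 CPM in automatic replicates 1 to 5, at 154, 209, 519, 279.9 and 275 CPM in manual replicates and at 148, 27.7, 192, 299 and 373 CPM in in vivo replicates. The 3 groups overlapped, and in vivo replicate 2, with 363 counts, was the lowest of all 15 libraries. Group means were 319 ± 163 CPM in automatic, 287 ± 139.7 CPM in manual and 208 ± 134 CPM in in vivo libraries (SD, n = 5 each). The fitted difference of the cultured mean from in vivo was 0.54 ± 0.48 on the log2 scale, with an interval of -0.46 to 1.54 (edgeR adjusted p = 0.999). The lower bound corresponds to a fall smaller than any within the interval of NANOG, -3.39 to -1.32.

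SOX2, the HMG-box partner of POU5F1, was at 4.40, 38.1, 30.2, 88.4 and 11.7 CPM in automatic, 8.16, 23.7, 10.9, 29.4 and 24.8 CPM in manual and 6.34, 15.5, 16.5, 11.97 and 5.64 CPM in in vivo replicates 1 to 5. Automatic libraries spanned a 20.1-fold range, from the lowest to the highest value in the whole set, and in vivo libraries a 2.93-fold range within them. In 6 of 10 cultured libraries SOX2 exceeded the highest in vivo value, and in 1 it was below the lowest. The log2 fold change of the cultured mean against in vivo was 1.21 ± 0.80 (edgeR adjusted p = 0.990), and that of automatic against manual was 0.83 ± 0.88. Automatic replicate 4, a low-detection library, carried much of both: without it they were 0.86 and 0.14, and without all 5 low-detection libraries 0.84 and -0.23. An annotated lncRNA, LOC100849009, overlaps SOX2 in the ARS-UCD2.0 annotation and was not among the counted genes; whether the authors' counting used strand is not given in the sources used here.

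**Figure D2:**
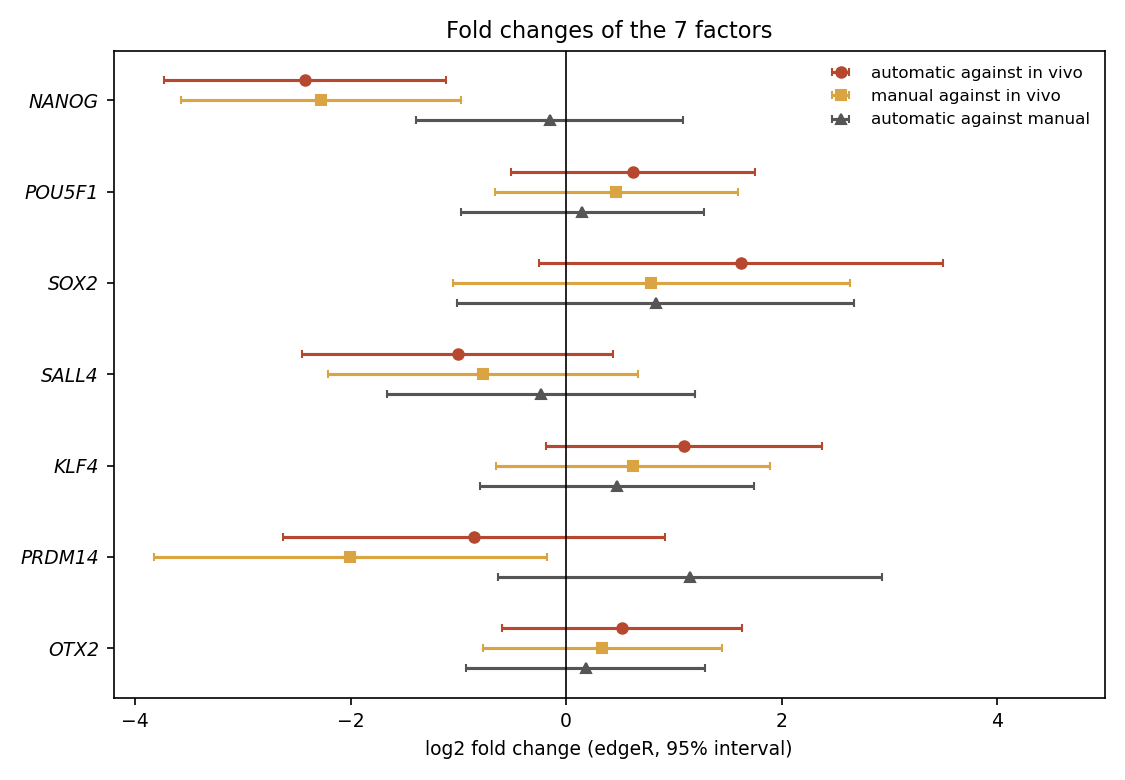
Log2 fold change (edgeR) of each factor for automatic against in vivo, manual against in vivo and automatic against manual, with 95% intervals. The intervals of NANOG against in vivo, and that of PRDM14 for manual against in vivo, lie below 0, before adjustment over all genes; the automatic against manual intervals all include 0.

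SALL4, a zinc finger protein that recruits the NuRD chromatin complex, was at 28.5, 20.003, 57.2, 17.2 and 61.5 CPM in automatic, 22.4, 15.8, 80.4, 49.0 and 49.4 CPM in manual and 61.7, 17.0, 138, 40.9 and 113 CPM in in vivo replicates 1 to 5. The highest levels were in vivo replicates 3 and 5, and the low-detection libraries were the lowest of their groups. The difference of the cultured mean from in vivo was -0.89 ± 0.57 on the log2 scale, with an interval of -2.09 to 0.31 (edgeR adjusted p = 0.986). Without the low-detection libraries it was -1.06 ± 0.40 (adjusted p = 0.527). There, automatic libraries averaged 49.1 ± 17.9 CPM (SD, n = 3), manual libraries 50.3 ± 23.7 CPM (SD, n = 4) and in vivo libraries 104 ± 38.8 CPM (SD, n = 3). All 3 automatic libraries were then below all 3 in vivo libraries, as were 8.97% of all genes, and 3 of 4 manual libraries were below them.

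KLF4, a Krüppel-like activator of the naive state, was at 23.5, 94.1, 110.4, 232 and 115 CPM in automatic, 31.5, 85.2, 59.5, 96.3 and 142 CPM in manual and 16.1, 108, 44.2, 48.1 and 52.7 CPM in in vivo replicates 1 to 5. In 4 of 10 cultured libraries the level exceeded every in vivo library, and in none was it below the lowest. Replicate 1 was the lowest library of each group, a shared number that the labels do not tie to a shared day or batch. The log2 fold changes were 1.10 ± 0.61 for automatic against in vivo and 0.62 ± 0.61 for manual against in vivo, and 0.86 ± 0.54 for their mean (edgeR adjusted p = 0.983), with an interval that included 0.

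PRDM14, which represses FGF signalling and DNA methylation genes in mouse naive cells, was at 56.3, 16.8, 50.9, 30.3 and 116 CPM in automatic, 18.7, 0.609, 56.2, 32.02 and 14.1 CPM in manual and 47.1, 21.4, 78.4, 189.8 and 151 CPM in in vivo replicates 1 to 5. On the log2 CPM scale it varied most of the 7 within groups, with an SD of 1.72. By group that SD was 1.04 in automatic, 2.48 in manual and 1.28 in in vivo libraries. By the coefficient of variation that edgeR fitted, SOX2 was slightly more variable, at 93.0% against 90.4%. Manual replicate 2, a low-detection library, held 13 counts of PRDM14. Group means were 54.0 ± 38.0 CPM in automatic, 24.3 ± 21.1 CPM in manual and 97.5 ± 70.8 CPM in in vivo libraries (SD, n = 5 each). In the manual group 3 of 5 libraries were below the lowest in vivo library, and the log2 fold change was -2.001 ± 0.87, with an unadjusted p of 0.0335 and an adjusted p near 1 in edgeR. Leaving out manual replicate 2 gave -1.68 ± 0.75. Automatic against in vivo was -0.85 ± 0.85, and automatic against manual 1.15 ± 0.85, the largest fitted difference between the cultured groups among the 7, with an interval of -0.63 to 2.93.

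OTX2, a homeodomain factor of the primed epiblast and later of the head, was at 156, 80.6, 147, 38.2 and 169 CPM in automatic, 113, 83.9, 78.2, 108 and 137 CPM in manual and 150.05, 52.1, 121, 20.01 and 68.6 CPM in in vivo replicates 1 to 5. Manual libraries kept within a 1.75-fold range, while the lowest automatic and in vivo values were in low-detection libraries. The log2 fold change of the cultured mean against in vivo was 0.43 ± 0.47, with an interval of -0.55 to 1.41. Without the low-detection libraries, automatic libraries averaged 158 ± 11.1 CPM (SD, n = 3) and manual libraries 109 ± 24.2 CPM (SD, n = 4), and all 3 automatic libraries were above all 4 manual ones, as 2.92% of genes were. The fitted difference was then 0.55 ± 0.33 and did not pass (edgeR adjusted p = 1.0).

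Within groups the 7 factors were less variable than most genes. Their SD on the log2 CPM scale was 0.87 for OTX2 to 1.72 for PRDM14, against a median of 2.21 over all genes tested. Between 13.8% and 37.2% of genes had a lower SD than a given factor. Mean level and spread go together in such counts, and the mean of each factor was above that of 53.0 to 94.5% of genes. Across the 7, 4 had a positive and 3 a negative log2 fold change for the cultured mean against in vivo, with a median of 0.43, beside a median of -0.04 and 5580 positive values among 11578 genes. Between automatic and manual, 5 were positive and 2 negative, with a median of 0.18, beside -0.05 over all genes.

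The ratio of NANOG to POU5F1 counts within a library does not depend on how library totals are scaled. It was 33.4, 1.66, 23.3, 17.5 and 12.2 NANOG counts per 100 POU5F1 counts in automatic replicates 1 to 5, 12.4, 23.1, 11.01, 15.0 and 38.5 in manual replicates and 145, 579, 94.7, 116 and 111 in in vivo replicates. Every cultured library was below every in vivo library. As log2 ratios the group means were -3.03 ± 1.70 in automatic, -2.48 ± 0.74 in manual and 0.67 ± 1.06 in in vivo libraries (SD, n = 5 each).

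The log2 ratio of the 10 cultured libraries differed from that of the 5 in vivo libraries by -3.43, or 10.7-fold lower (exact two-sided permutation test, p = 0.000666, the smallest that 3003 splits can give; Benjamini-Hochberg adjusted p = 0.00266 over 4 comparisons). It was -3.70 for automatic and -3.15 for manual against in vivo, each with an exact p of 0.00794, the smallest that 252 splits can give, and an adjusted p of 0.0106. Between automatic and manual it was -0.54, with an exact permutation p of 0.651. The pair was chosen with the low NANOG level already known, so these p-values are not independent of the NANOG result above. Without the low-detection libraries the cultured mean against in vivo was -2.64, with an exact permutation p of 0.0167, the smallest that 7 against 3 libraries can give, and an adjusted p of 0.0667.

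**Figure D3:**
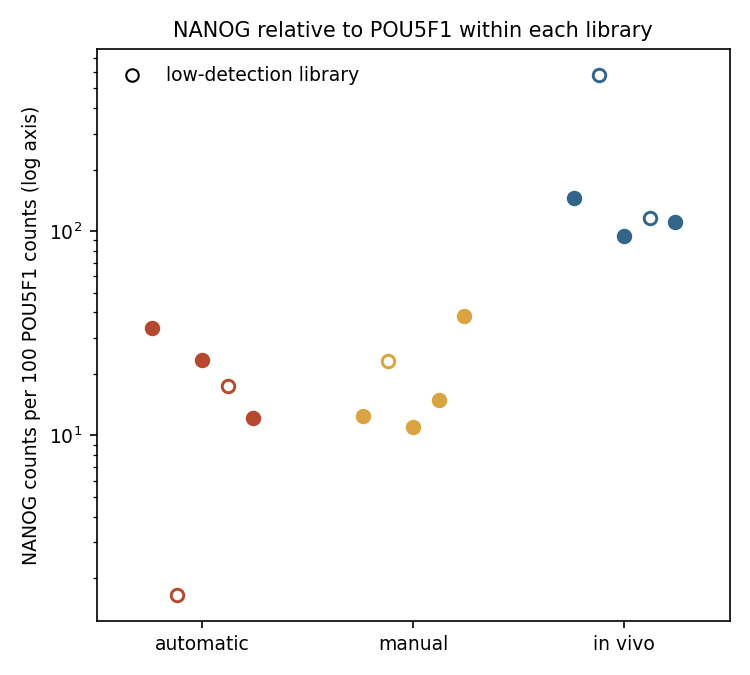
NANOG counts per 100 POU5F1 counts in each automatic, manual and in vivo library (log axis). Open points are low-detection libraries; cultured libraries lie at 38.5 or less and in vivo libraries at 94.7 or more.

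Set against the other factors in the same way, NANOG gave groups without overlap for SOX2 as well, where the log2 ratio of cultured libraries differed from in vivo by -3.54. With KLF4 and OTX2 as the denominator 9 of 10 cultured libraries were below the lowest in vivo library, with differences of -3.46 and -3.23. With PRDM14 it was 7 of 10 and with SALL4 6 of 10, with differences of -0.94 and -1.85. These differences combine the fold changes of NANOG and of each denominator given above.

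Across libraries, 28 relations were computed, each pair of the 7 factors and each factor against the number of genes detected, on log2 CPM. Since the low-detection libraries stood apart in the number of genes detected, relations are given over the other 10 libraries, where none passed adjustment. SOX2 and KLF4 had Pearson's r = 0.783 and Spearman's rho = 0.721 (permutation p = 0.00943 and 0.0237, adjusted 0.132 and 0.320), and leaving out the 2 libraries with SOX2 farthest from its median gave r = 0.735. NANOG and SALL4 had r = 0.787 and rho = 0.842 (permutation p = 0.00764 and 0.00376, adjusted 0.132 and 0.105), and 0.840 without 2 libraries. NANOG and SALL4 both had their highest mean in vivo. Over all 15 libraries their r was 0.472, and 0.313 with the group means removed. For SOX2 and KLF4 these values were 0.829 and 0.793. Relations with the group means removed were not computed for the 10 libraries alone. NANOG and POU5F1 had r = 0.157 and rho = 0.20 (permutation p = 0.662 and 0.582). Over all 15 libraries, low-detection ones included, 2 relations passed by Pearson's r and 0 by Spearman's rho. These were SOX2 with KLF4 (r = 0.829, permutation p adjusted 0.00364; rho = 0.721, adjusted 0.0958) and OTX2 with the number of genes detected (r = 0.707, adjusted 0.0354; rho = 0.675, adjusted 0.0993). OTX2 had r = 0.377 with the number of genes detected in the 10 libraries (permutation p adjusted 0.742), and none of the 7 factors passed against that number there. NANOG had r = 0.011 with it over all 15 libraries and -0.295 over the 10.

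**Figure D4:**
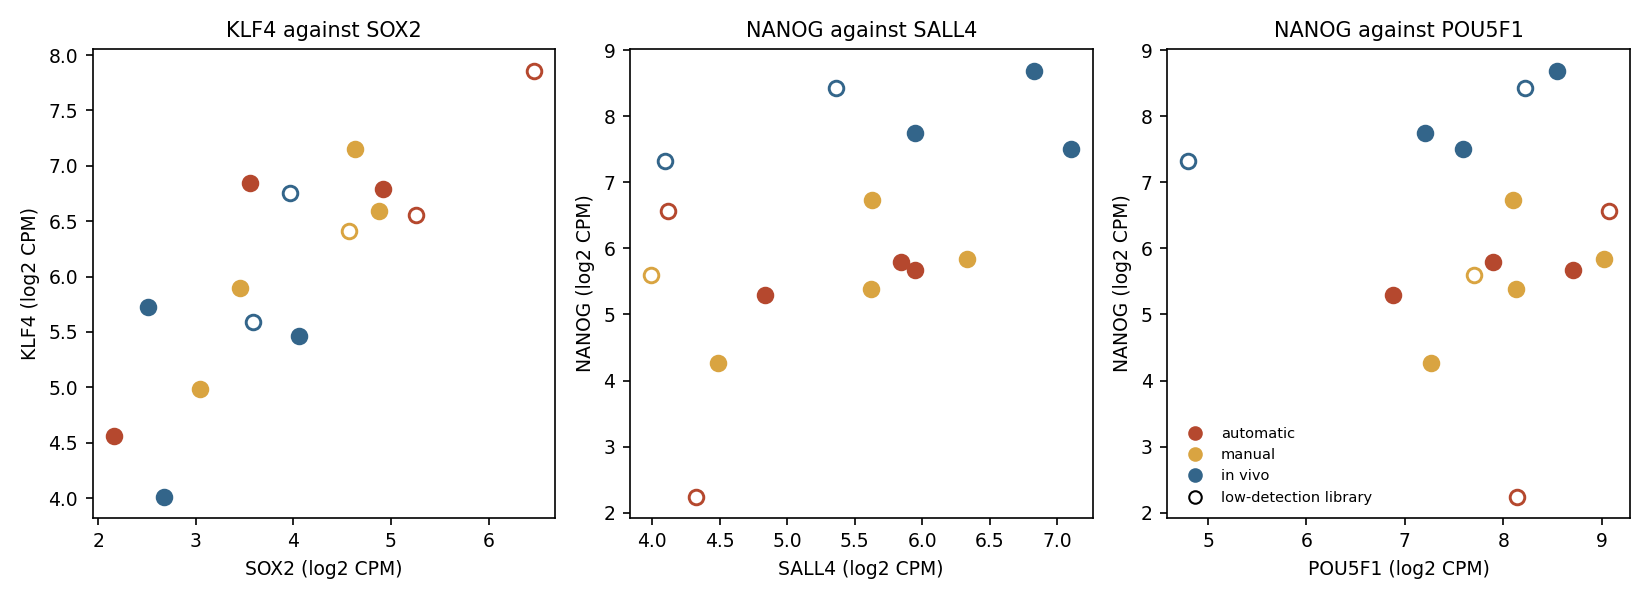
Log2 CPM of KLF4 against SOX2, NANOG against SALL4 and NANOG against POU5F1, with 1 point a library and open points for low-detection libraries. KLF4 is higher where SOX2 is higher over the libraries as a whole, with more scatter among the in vivo libraries, and the in vivo libraries lie above the cultured ones in both plots of NANOG.

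The genes most like a factor were sought among 7273 genes with a mean of at least 10 CPM, by Pearson's r of log2 CPM over the 15 libraries, as a description with no test. For NANOG they were MIEN1 (r = 0.875), PAG2, a pregnancy-associated glycoprotein of the trophoblast (0.860), and STMN1, a microtubule-destabilising protein (0.856). PAG2 belongs to a family of close copies whose reads count estimation divides, so its level is less certain. All 3 had their highest group mean in vivo. MIEN1, for instance, averaged 27.6 CPM in automatic, 23.9 CPM in manual and 79.8 CPM in in vivo libraries. Within the 10 libraries with more genes detected, r was 0.747 for MIEN1, 0.708 for PAG2 and 0.844 for STMN1. Over all 15 libraries, SALL4 ranked 745, PRDM14 989, POU5F1 4305, KLF4 4986, SOX2 6075 and OTX2 6331 in likeness to NANOG. These ranks include the low-detection libraries, and none were computed for the 10 libraries alone. There, r with NANOG was 0.787 for SALL4, above that of MIEN1 and PAG2, and 0.476 for PRDM14. It was 0.157 for POU5F1, -0.125 for KLF4, -0.172 for SOX2 and -0.308 for OTX2.

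For POU5F1 the most alike were TMEM9 (0.937), METTL9 (0.914) and GRB2, an adaptor of receptor tyrosine kinases (0.909). Within the 10 libraries r was 0.943 for METTL9, 0.887 for TMEM9 and 0.751 for GRB2. For SOX2 they were ART3 (0.861), ZFP36L2, an RNA-binding protein that destabilises transcripts (0.845), and KLF4 (0.829). KLF4 was thus the third most alike of 7273 genes. For SALL4 they were DHDH (0.824), PLEC (0.822) and RIOX1 (0.820), which had lower r, 0.571, 0.613 and 0.650, within the 10 libraries.

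Other genes of pluripotency divided between the directions. Of 31 listed, 24 were in the table and 21 were tested, with 10 higher and 11 lower for the cultured mean against in vivo and a median of -0.08. Of the 21, 0 were called by edgeR and 2 had an unadjusted p under 0.05, as 6.13% of all genes did. CRIPTO, the co-receptor of NODAL, was the extreme one. It was at 2.93, 0, 0, 0 and 1.21 CPM in automatic, 2.98, 0, 29.6, 0.345 and 0 CPM in manual and 76.1, 444, 41.8, 163 and 138 CPM in in vivo replicates 1 to 5. As with NANOG, 10 of 10 cultured libraries were below the lowest in vivo library, as for 0.276% of all genes, and edgeR did not call it (adjusted p = 0.275). The call again depended on the tool, with an adjusted p of 0.0523 with DESeq2, 0.0063 with limma-voom and 0.00378 with limma-voom and quality weights. It was the 1 gene of this list that any of these tools called in a comparison.

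ZFP42 (REX1), a marker of naive cells, had the opposite sign. It averaged 966 ± 300.2 CPM in automatic, 951 ± 415 CPM in manual and 620.2 ± 145 CPM in in vivo libraries (SD, n = 5 each). In 7 of 10 cultured libraries it exceeded every in vivo library, with a log2 fold change of 0.63 ± 0.29 (edgeR adjusted p = 0.805). DPPA4, a chromatin factor of early embryos, was at 270.1 ± 56.6, 167 ± 73.6 and 288 ± 50.5 CPM in automatic, manual and in vivo libraries, with a log2 fold change of -0.44 ± 0.32. FGF4, which the epiblast makes in the mouse, had counts in 1 of 15 libraries.

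Of 20 genes of the primed or formative epiblast, all in the table, 11 were tested. Of these, 2 were higher and 9 lower for the cultured mean against in vivo, with a median of -1.12 beside -0.04 over all genes. Of the 11, 0 were called by edgeR and 2 had an unadjusted p under 0.05, as 6.13% of all genes did. With quality weights limma-voom called 2 of the 11, NODAL and LEFTY2 (0.924% of all genes). DESeq2 (0.751% of all genes) and limma-voom without weights (0.13%) called 0. The split of 2 higher and 9 lower covers only genes kept by the filter and may in part reflect it. NODAL was kept with counts in 4 in vivo libraries and 1 manual library. FGF5 and TBXT, at 0 in vivo, and EOMES, at 0 in both cultured groups, were not kept. The 3 named here were picked by the smallest unadjusted p of the list, so they do not stand for the list as a whole. NODAL, a TGF-beta family ligand of the epiblast, was at 0 in all 5 automatic libraries, at 1.78 CPM in manual replicate 1 and 0 in the other 4, and at 9.53, 0, 7.21, 2.15 and 2.31 CPM in in vivo replicates 1 to 5. LEFTY2, a NODAL antagonist and target, was at 5.37, 0, 12.5, 0.497 and 3.87 CPM in automatic, 12.9, 0, 24.2, 0 and 0 CPM in manual and 28.9, 102, 31.1, 9.18 and 35.2 CPM in in vivo replicates. Its log2 fold change of -2.85 ± 1.45 had an edgeR adjusted p of 0.866. TCF7L1, a repressor in the WNT pathway that restrains NANOG in the mouse, was below the lowest in vivo library in 8 of 10 cultured libraries. Its log2 fold change was -1.74 ± 0.82 (edgeR adjusted p = 0.805). Without the low-detection libraries edgeR gave -1.95 for LEFTY2 and -1.21 for TCF7L1 (adjusted p = 0.818 and 0.720). NODAL, at 0 in most cultured libraries, had -6.77 with all libraries and -7.30 without those (edgeR adjusted p = 0.525 and 0.405).

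**Figure D5:**
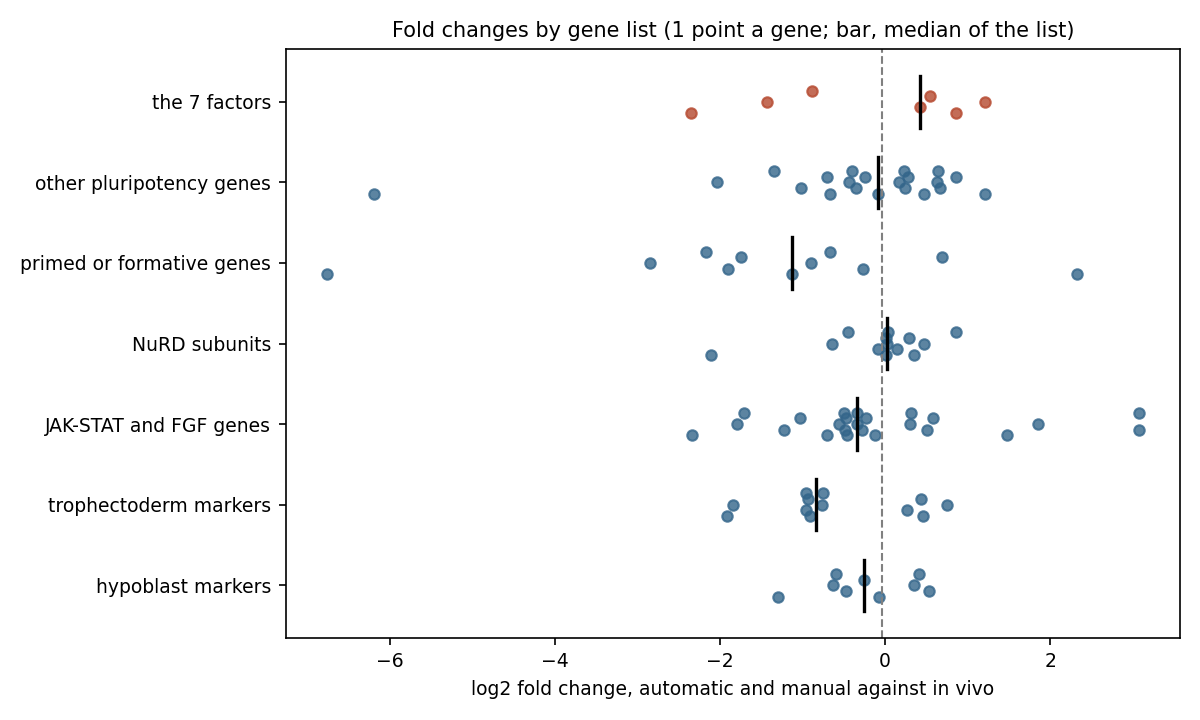
Log2 fold change of the cultured mean (automatic and manual) against in vivo for each tested gene of 7 lists, with the median of each list as a bar and that of all genes, -0.04, as a dashed line. The 7 factors fall on both sides, and 9 of 11 primed or formative genes lie left of the line.

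The 13 subunits of the NuRD complex, the partner of SALL4, showed 9 higher and 4 lower, with a median of 0.02 and 0 at an unadjusted p under 0.05. GATAD2A, a scaffold subunit, averaged 8.21 ± 9.87 CPM in automatic, 8.03 ± 5.94 CPM in manual and 35.1 ± 36.5 CPM in in vivo libraries (SD, n = 5 each), of which in vivo replicate 2 alone held 99.7 CPM. Among 24 tested genes of JAK-STAT and FGF signalling, 8 were higher and 16 lower, with a median of -0.34 and 0 at an unadjusted p under 0.05. LIF was at 0 in every library. IL6, a cytokine that expands the inner cell mass of cultured bovine embryos, was above every in vivo library in 8 of 10 cultured libraries. It was at 63.3, 31.99, 47.3, 111 and 40.7 CPM in automatic, 56.5, 31.1, 33.5, 15.9 and 16.0 CPM in manual and 9.01, 19.2, 20.5, 0 and 10.1 CPM in in vivo replicates, a log2 fold change of 1.85 ± 0.93 (edgeR adjusted p = 0.863). EGR1, an early target of FGF and ERK signalling, had the opposite sign, at 5.46, 6.23, 9.35, 1.99 and 5.13 CPM in automatic, 8.68, 3.23, 8.05, 3.67 and 0.21 CPM in manual and 12.97, 17.96, 35.7, 5.67 and 12.3 CPM in in vivo replicates. In 6 of 10 cultured libraries it was below the lowest in vivo library, with a log2 fold change of -1.70 ± 0.90 (edgeR adjusted p = 0.885). SOCS3, a feedback inhibitor of JAK-STAT signalling, averaged 5.33 ± 6.19 CPM in automatic, 1.95 ± 2.46 CPM in manual and 0.374 ± 0.764 CPM in in vivo libraries (SD, n = 5 each).

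Markers of the other lineages give the setting of the NANOG difference. Of 12 trophectoderm genes, 4 were higher and 8 lower for the cultured mean against in vivo, with a median of -0.84, 0 called by edgeR and 5 at an unadjusted p under 0.05, where 6.13% of all genes were. DESeq2 and limma-voom called 0 of the 12 there, and limma-voom with quality weights 2, the keratins KRT18 and KRT19 (0.924% of all genes). For automatic against in vivo, 6 of the 12 had an unadjusted p under 0.05 (5.36% of all genes). DESeq2 called KRT19 in that comparison (0.751%) and limma-voom with quality weights both keratins (0.821%). Between automatic and manual, 11 of the 12 were lower in automatic, 3 of the 12 with an unadjusted p under 0.05 (1.48%). For manual against in vivo it was 1 of the 12 (3.39%). DAB2, an endocytic adaptor, was below every in vivo library in 10 of 10 cultured libraries, as 0.276% of genes were. Its log2 fold change for the cultured mean was -0.95 ± 0.28 (edgeR adjusted p = 0.534), and -0.56 without the low-detection libraries (edgeR adjusted p = 0.572). Transcription factors of the list divided. GATA3, TFAP2C and TEAD4 had higher, and CDX2, GATA2 and TFAP2A lower, means in both cultured groups than in vivo. TFAP2C averaged 257, 194 and 133 CPM, and CDX2 4.20, 7.84 and 9.76 CPM, in automatic, manual and in vivo libraries. Of 9 tested hypoblast genes, 3 were higher and 6 lower for the cultured mean against in vivo, with a median of -0.26 and 0 at an unadjusted p under 0.05. The part of the cell makeup in the NANOG difference was not tested.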

How the data were processed

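Poly(A) RNA-seq libraries of 15 bovine blastocyst samples were analysed, grouped by their titles. The deposited values are the authors' estimated counts, 1 whole number per gene and library, with no scaling between libraries. Per the submitters' processing notes the tools were FastQC, fastp and kallisto, of which kallisto estimates counts per transcript. What they were run with, the transcript set, the genome build, the handling of molecular identifiers and the strand setting, is not given in the sources used here, and coordinates are left out for that reason. A line without a gene name held 0 counts and was left out. Rounding to whole numbers changed 0 values. All pairs of libraries within a group differed beyond sampling noise, with a chi-square of 191 or more for each degree of freedom.

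Tests were run with edgeR 4.0.16 (quasi-likelihood, R 4.3.3), with TMM factors, filterByExpr (11578 of 17259 genes), robust dispersions and a single fit of the 15 libraries by group. Contrasts set automatic against manual, each cultured group against in vivo, and the average of both cultured groups, called the cultured mean, against in vivo. The 3 contrasts with in vivo share its libraries. A call is a Benjamini-Hochberg adjusted p under 0.05 over all genes tested. SE was derived from the fold change and its F statistic. CPM use TMM-scaled totals, and log2 CPM a prior count of 2. The NANOG to POU5F1 ratio used a pseudocount of 0.5 counts and exact permutation tests, and correlations used 100000 permutations (scipy 1.17.1). Names come from ARS-UCD2.0. The edgeR script was tested on simulated data. Alternatives used DESeq2 1.42.0, limma 3.58.1, other scalings and filters, a covariate, a replicate block and left-out libraries.

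The 7 factors, the 10 gene lists (165 symbols) and the tests were chosen with earlier results of these data known. Named genes are the 7, the genes called and otherwise up to 3 per list with the smallest unadjusted p in the cultured mean against in vivo at a mean of at least 1 CPM, and the 3 most alike to NANOG, POU5F1, SOX2 and SALL4.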

Additional observations from a re-analysis of the deposited data

Results flagged for a closer look

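In vivo replicate 2 had the highest log2 ratio of NANOG to POU5F1 counts in its group, 2.53, set apart from the other 4 in vivo libraries by 0.763 of the group's whole range, against Dixon's critical value of 0.71 for 5 libraries. It is a low-detection library and held 2102 NANOG and 363 POU5F1 counts. It was the 1 value that stood out among 24 groups of 5 libraries examined in this way, and chance does so in about 1 of 20 groups. The ratio test without the low-detection libraries is given with the ratio above.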

How the results depend on the processing

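No setting other than the test turned a factor into a called gene. Of 301 fold changes of the 7 factors refitted under settings other than leaving out 1 library, 287 kept both direction and side of the threshold, 9 reversed, none of them called, and 5 newly passed, all of NANOG. NANOG was the 1 factor called by DESeq2 and by limma-voom with quality weights in 2 comparisons each (cultured mean and automatic against in vivo) and by limma-voom in 1 (cultured mean). The reversed values were as follows: with quality weights, automatic against manual was 0.12 for NANOG, -0.33 for POU5F1, -0.49 for SOX2, 0.10 for SALL4 and -0.21 for KLF4; without the low-detection libraries it was -0.23 for both POU5F1 and SOX2, and manual against in vivo was -0.060 for OTX2. The cause was not tested.

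The number of genes called, in the order automatic against manual, cultured mean against in vivo, automatic against in vivo and manual against in vivo, was 9, 87, 87 and 44 with DESeq2, 0, 15, 9 and 1 with limma-voom, 1, 107, 95 and 2 with quality weights and 1, 7, 9 and 3 without the low-detection libraries. With library size alone as scaling it was 0 in both the cultured mean and automatic against in vivo, and the median of all genes in automatic against in vivo was 0.12, against -0.06 with TMM. Automatic against in vivo gave 1 without a filter and 1 in a fit of those libraries only. The cultured mean gave 7 with the number of genes detected as a covariate. Leaving out 1 library at a time gave 0 to 7 genes in the cultured mean and 0 to 4 in automatic against in vivo, with the highest values without manual replicate 3, and 0 factors. NANOG in the cultured mean then ranged from -2.54 to -2.13 (edgeR adjusted p 0.104 to 0.697), and automatic against manual from -0.52 to 0.23 for NANOG, -0.11 to 0.49 for POU5F1 and -0.47 to 0.12 for SALL4.

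The log2 ratio of NANOG to POU5F1, leaving out 1 library, ranged from -3.61 to -2.96 for the cultured mean, -4.06 to -2.98 for automatic and -3.43 to -2.69 for manual against in vivo, each with adjusted exact permutation p under the threshold, and from -0.91 to 0.18 between automatic and manual. Without the low-detection libraries the 4 values were 0.34 (automatic against manual), -2.64, -2.44 and -2.78, and the adjusted p of the last 3 were 0.0667, 0.133 and 0.114, where fewer libraries limit the smallest p.

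The labels do not say that a replicate number marks a shared batch, and the numbers were not treated as pairs in the main fit. The correlation of deviations from group means was 0.00137 to 0.380 in same-numbered pairs, and 0.1 or less in some. All of these correlations were positive and 8 of 15 libraries correlated best with their own number, a hint from the data that some numbers may mark libraries with something in common. The number expected without sharing was not computed. All 5 low-detection libraries carried the number 2 or 4, and only manual replicate 4 had such a number without being one. The split by genes detected thus largely follows replicate number. With the number as a replicate block, 8 genes were called in the cultured mean, 7 in automatic and 1 in manual against in vivo, 0 of them a factor. NANOG was -2.41 (edgeR adjusted p = 0.082) and OTX2 reversed to -0.070 between automatic and manual. The ratio kept its values of -3.43, -3.70 and -3.15 under the block, and its exact sign-flip p of 0.0625, the smallest that 5 pairs allow, was 0.0833 after adjustment.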

Other observations

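Relatives of the 7 factors were also listed, 30 POU, SOX, SALL, KLF, PRDM and OTX family genes, of which 20 were tested. For the cultured mean against in vivo, 8 were higher and 12 lower, with a median of -0.31, 0 called and 0 at an unadjusted p under 0.05. KLF10, a TGF-beta-induced relative of KLF4, averaged 95.02 ± 37.0 CPM in automatic, 67.0 ± 24.7 CPM in manual and 163 ± 174 CPM in in vivo libraries (SD, n = 5 each), of which in vivo replicate 2 alone held 464 CPM. PRDM1, a repressor known from the germ line and lymphocytes, was at 12.02 ± 20.04 CPM in automatic, 2.72 ± 2.91 CPM in manual and 0.38 ± 0.58 CPM in in vivo libraries, with 47.6 CPM in 1 automatic library. SALL3, a relative of SALL4, was at 2.73 ± 1.86, 4.63 ± 4.33 and 12.9 ± 12.4 CPM in automatic, manual and in vivo libraries. Reads of close relatives can be divided between them by count estimation, so such values are less certain.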
